A study of Homo sapiens with 6 samples.

Results

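A set of 10 transcription factor genes that set up the red cell and platelet lineages was followed in K562 cells that had become resistant to azacitidine: GATA1, GATA2, TAL1, LMO2, KLF1, GFI1B, NFE2, RUNX1, FLI1 and BCL11A. The 10 genes were chosen by name from 61487 gene IDs. K562 is an established human chronic myeloid leukaemia line that carries the BCR-ABL1 fusion and keeps an erythroid and megakaryocytic character. Azacitidine is a cytidine analogue that cells incorporate into nucleic acids, where it traps DNA methyltransferases. The 3 sensitive libraries came from K562 cells with no derivation under the drug, and the 3 resistant libraries from a population of the same line derived under rising doses of the drug for over 4 months. The library names of both groups end in NT, and what this tag stands for was not settled here. Neither the labels nor the design text spell out a drug treatment at harvest. They name the replicates biological without saying whether these were separate cultures or whether the resistant population is 1 clone. The p-values therefore measure the spread between these libraries only, and resistance itself cannot be told apart from anything else that happened during the derivation.

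Red cells, platelets and mast cells share a progenitor in which GATA2 and RUNX1 are active. As cells commit, GATA1 takes over from GATA2 at many sites and works in a complex with TAL1 and its partner E proteins, in which LMO2 and LDB1 act as bridges that bind no DNA themselves. KLF1 then drives the red cell programme, FLI1, RUNX1 and NFE2 the platelet programme, while GFI1B and BCL11A act mainly as repressors, BCL11A of the fetal globin genes.

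The total count was between 33007642 and 43006918 per library. The groups separated on the first principal component of log2 CPM (counts per 1000000 counts of the library, with the total scaled by edgeR's TMM factor), which held 66.3% of the variance, while on the second, replicate 3 of either group lay far from the remaining libraries (18%). The labels call the cells myeloblasts. The myeloblast markers MPO and ELANE were below 1 CPM in every library, and AZU1 was at 1.88 to 4.98 CPM. The fetal globin gene HBG1 was at 86.4, 58.0 and 101 CPM in sensitive against 35.2, 35.0 and 123 CPM in resistant libraries. Summed K562 identity markers (7 genes) were at 661 to 1562 CPM in sensitive against 775 to 1369 CPM in resistant libraries, with TFRC the largest part. Among them HBE1 was below 1 CPM in every library. GYPC was at 196 to 211 CPM in sensitive against 107 to 149 CPM in resistant libraries. Summed T cell markers (5 genes) were at 23.1 to 114 CPM in sensitive against 2.28 to 3.34 CPM in resistant libraries, mostly CD3D, with CD2 and CD3E below 1 CPM throughout. Summed granulocyte and monocyte markers (6 genes) were at 45.9 to 81.8 and 7.76 to 9.98 CPM, mostly LYZ. The B cell marker MS4A1 was at 0 in every library. Fibroblast markers (5 genes) were at 1.24 to 3.33 and 4.80 to 7.91 CPM and epithelial markers (5 genes), mainly KRT8, KRT18 and EPCAM, at 524 to 660 and 399 to 565 CPM. The part of these transcripts in the results was not tested.

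Of the 10 factor genes, 8 had more than 10 CPM in every library, and 7 of these 8 missed the threshold for a difference between resistant and sensitive cells. The exception was LMO2, which fell 1.92-fold in resistant cells. Missing the threshold does not show that a level was unchanged, and for these 7 the interval of each difference is given with it. FLI1 had no count and BCL11A almost none, and these 2 genes were too low to test. A gene was called when its adjusted p was below 0.05 in edgeR's quasi-likelihood test, with Benjamini-Hochberg adjustment over all 20891 genes tested. By this rule 1 of the 8 tested factors was called lower and 0 higher (at an unadjusted p below 0.05, 3 lower, GATA1, LMO2 and GFI1B, and 1 higher, TAL1; 1 lower and 1 higher by DESeq2; 1 lower and 0 higher by limma-voom), where 23.0% of all tested genes were called, 13.1% lower and 9.83% higher. In numbers, 2054 genes were higher and 2741 lower over the whole table, and 3041 and 2118 when only library totals set the scale. The 2 groups of libraries did not overlap for 4 of the 8 factors (GATA1, TAL1, LMO2 and RUNX1), and for 40.1% of all tested genes.

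**Figure D1:**
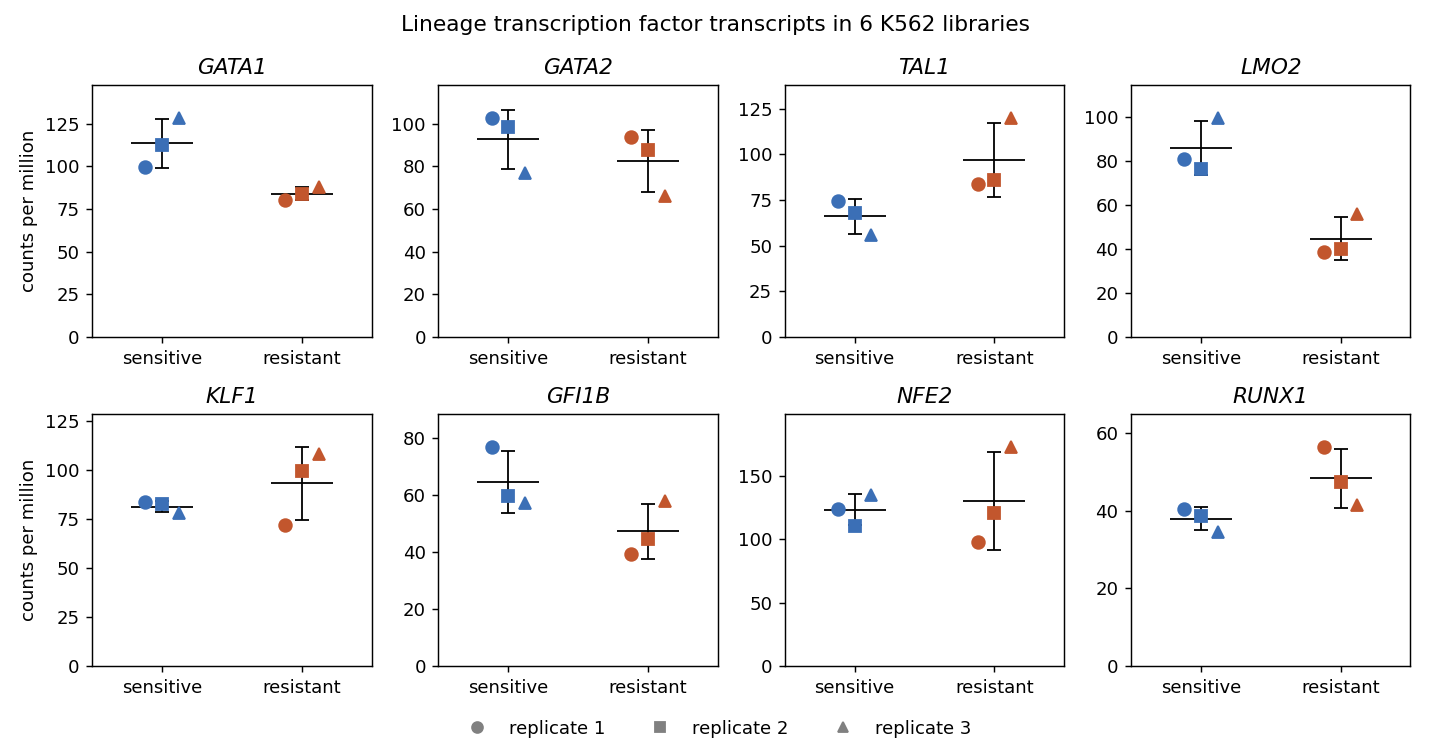
CPM (vertical axis, from 0, a separate scale for each gene) of the 8 tested factors in the 3 sensitive (blue) and 3 resistant (orange) libraries; symbols mark the replicate number, the long bar is the mean and the error bar the SD. LMO2 lies between 76.4 and 99.5 CPM in sensitive and between 38.4 and 55.7 CPM in resistant libraries, and the triangles of the libraries numbered 3 are the highest or lowest of their group in all 8 panels.

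LMO2, the bridging protein of the TAL1 and GATA complex, is encoded on chromosome 11 (33858576 to 33892289, minus strand). It measured 81.0, 76.4 and 99.5 CPM in sensitive against 38.4, 39.8 and 55.7 CPM in resistant libraries. Every resistant library was below every sensitive one. In such bulk RNA, fewer cells with a transcript and less of it per cell cannot be told apart. Its mean was 85.6 ± 12.2 CPM in sensitive and 44.6 ± 9.64 CPM in resistant cells (SD, n = 3 each). LMO2 thus fell 1.92-fold, with −0.94 ± 0.19 (SE) on the log2 scale (edgeR adjusted p = 0.00583). The call was lost without resistant replicate 2 (log2 fold change −0.86, adjusted p = 0.0524). Without both libraries numbered 3 the log2 fold change was −1.02. Sensitive replicate 3 was the highest library for LMO2 and also for the summed T cell markers, and both were lower in resistant cells. Within the resistant group, replicate 3 was the highest for LMO2 (55.7 CPM) and the lowest for those markers (2.28 CPM). A link between the 2 was not tested. Without sensitive replicate 3 the log2 fold change of LMO2 was −0.82 (adjusted p = 0.0255). An antisense gene that overlaps LMO2, ENSG00000184566, also fell, by 1.38 on the log2 scale (edgeR adjusted p = 0.0239), from 3.78 to 4.76 CPM in sensitive to 0.865 to 2.36 CPM in resistant libraries. That call was lost without sensitive replicate 1 (adjusted p = 0.0857) and without resistant replicate 1 (0.0568). The strand setting of the counting is not given in the sources used here, so reads of the overlapping pair cannot be told apart.

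TAL1, the basic helix-loop-helix protein that LMO2 binds, is encoded on chromosome 1 (47216290 to 47232220). Its level was 74.3, 68.2 and 55.7 CPM in sensitive against 83.9, 86.2 and 120 CPM in resistant libraries. The resistant libraries were all higher, with replicate 3 the highest. A log2 fold change of 0.55 ± 0.19 (SE; 95% interval 0.13 to 0.97) missed the threshold (edgeR adjusted p = 0.0602). It was 0.24 without both libraries numbered 3 (not called), 0.35 without resistant replicate 3 (0.122) and 0.71 with library totals alone (0.0275). TAL1 and LMO2, which act in the same complex, thus had log2 fold changes of opposite sign under each of the alternatives tried.

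GATA1, the leading red cell factor, is encoded on chromosome X (48786554 to 48794311). It measured 99.3, 113 and 128 CPM in sensitive against 80.4, 83.6 and 87.8 CPM in resistant libraries. The groups did not overlap, and the resistant libraries lay close together. The log2 fold change was −0.43 ± 0.15 (SE; 95% interval −0.77 to −0.09), with an edgeR adjusted p of 0.0664. GATA1 was called lower without resistant replicate 3 (−0.49, adjusted p = 0.0439; 31.3% of all tested genes were called in that fit) and without both libraries numbered 3 (−0.38, 0.0148).

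GATA2, the progenitor and mast cell factor, is encoded on chromosome 3 (128479427 to 128493185). It measured 103, 98.3 and 76.9 CPM in sensitive against 93.9, 88.0 and 66.2 CPM in resistant libraries. The groups overlapped, and replicate 3 was the lowest library in both. The log2 fold change of −0.16 ± 0.18 (SE) had a 95% interval from −0.57 to 0.25 (edgeR adjusted p = 0.561). The antisense gene GATA2-AS1, which overlaps it, was as even, at 29.7, 29.9 and 29.8 against 25.9, 33.3 and 23.5 CPM (adjusted p = 0.672).

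KLF1, which drives red cell maturation, is encoded on chromosome 19 (12884422 to 12887199). Its level was 83.4, 82.4 and 78.0 CPM in sensitive against 72.1, 99.2 and 108 CPM in resistant libraries. The sensitive libraries were nearly equal, and the resistant ones lay on both sides of them. KLF1 had a log2 fold change of 0.20 ± 0.17 (SE; 95% interval −0.19 to 0.58; edgeR adjusted p = 0.455), and 0.03 without both libraries numbered 3.

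GFI1B, a repressor that recruits the demethylase KDM1A in red cells and megakaryocytes, is encoded on chromosome 9 (132944000 to 132991687). It measured 77.0, 59.8 and 57.1 CPM in sensitive against 39.2, 44.5 and 58.1 CPM in resistant libraries. Resistant replicate 3 reached into the range of the sensitive libraries and the other 2 did not. The log2 fold change was −0.45 ± 0.19 (SE; 95% interval −0.88 to −0.03; edgeR adjusted p = 0.118). GFI1B was called lower without resistant replicate 3 (−0.65, adjusted p = 0.0196) and without both libraries numbered 3 (−0.72, 3.48e-04). TSC1, which overlaps GFI1B on the opposite strand, had a log2 fold change of 0.10 (adjusted p = 0.649).

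NFE2, which with a small MAF protein switches on late platelet and globin genes, is encoded on chromosome 12 (54292111 to 54301121). Its level was 124, 111 and 135 CPM in sensitive against 97.5, 121 and 173 CPM in resistant libraries. The resistant libraries spread widely on both sides of the sensitive ones. The log2 fold change of 0.08 ± 0.21 (SE) had a 95% interval from −0.40 to 0.56 (edgeR adjusted p = 0.818), and its sign turned without resistant replicate 3 (−0.20).

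RUNX1, a factor of blood stem cells and megakaryocytes, is encoded on chromosome 21 (34787801 to 36004667). It measured 40.4, 38.7 and 34.6 CPM in sensitive against 56.4, 47.3 and 41.3 CPM in resistant libraries. The groups did not overlap, but resistant replicate 3 was within a few CPM of the sensitive libraries. RUNX1 had a log2 fold change of 0.35 ± 0.16 (SE; 95% interval −0.01 to 0.71; edgeR adjusted p = 0.149). RUNX1 was called higher without both libraries numbered 3 (0.38, adjusted p = 0.0214).

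**Figure D2:**
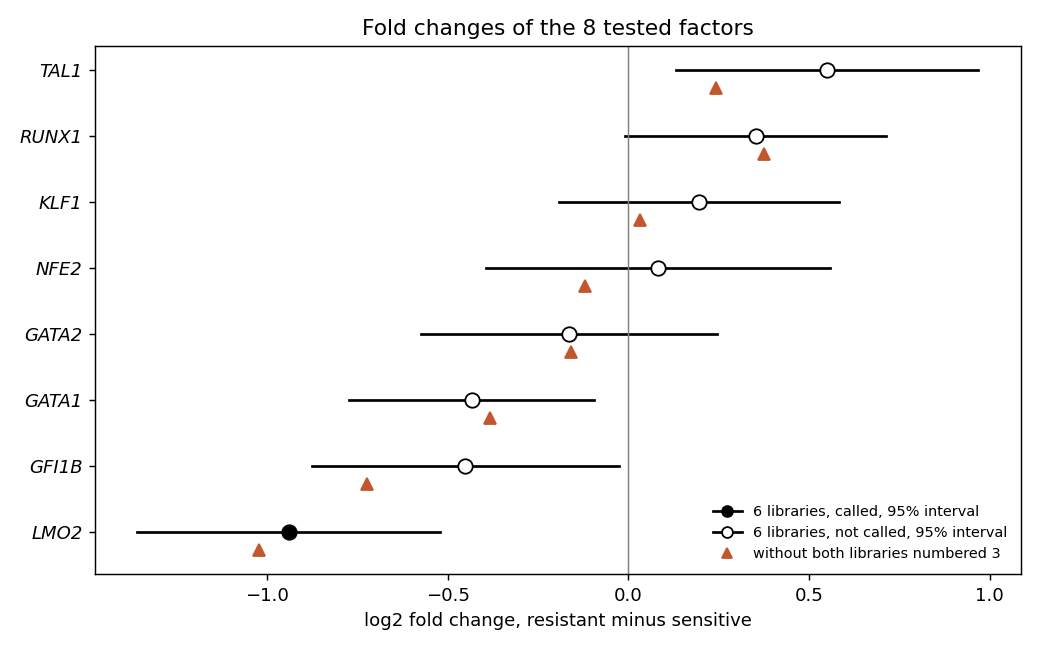
Log2 fold change of the 8 tested factors, resistant minus sensitive (horizontal axis), from all 6 libraries (circles, filled where called, with 95% intervals) and without both libraries numbered 3 (triangles). LMO2 alone is filled, at −0.94, and TAL1 moves from 0.55 to 0.24 and GFI1B from −0.45 to −0.72 when those libraries are left out.

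In both groups, replicate 3 was the highest or the lowest of the 3 libraries for 8 of the 8 tested factors, and over all tested genes this held in both groups for 68.9%. It deviated the same way in both groups for 5 factors (GATA1, LMO2 and NFE2 high, GATA2 and RUNX1 low) and in opposite ways for 3 (TAL1, KLF1 and GFI1B, low in sensitive and high in resistant replicate 3). Of the 14399 tested genes for which replicate 3 was extreme in both groups, 9974 deviated the same way and 4425 in opposite ways. With those 2 libraries left out, 3 of the 8 factors were called lower (GATA1, LMO2 and GFI1B) and 1 higher (RUNX1), while 44.1% of all genes were called, 22.9% lower and 21.2% higher.

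FLI1, an ETS factor of megakaryocytes and endothelium, is encoded on chromosome 11 (128686535 to 128813267). It had 0 counts in each of the 6 libraries, which allows up to 0.0253 CPM over the sensitive and 0.0279 CPM over the resistant group (3 counts of the group's total). A count of 0 in all libraries was found for 2572 of 19854 protein-coding genes (13%). The overlapping antisense gene SENCR had 2 counts in all, in resistant replicate 1. BCL11A, the fetal globin repressor, is encoded on chromosome 2 (60450520 to 60555154). It had 0, 6 and 4 counts in the sensitive libraries and 0 in every resistant library. With 3 counts taken for the resistant group it was 3.03-fold lower, without allowance for the counting error of the sensitive counts. These limits cover only the counting error of a group at 0, and with sensitive replicate 1 also at 0 the 2 genes were near or below detection in both groups.

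Levels were compared between the factors per length, as CPM divided by the exon length in kilobases (RPKM). In sensitive cells GATA1 led with 75.6 ± 9.70 RPKM (SD, n = 3), followed by KLF1 (50.4 ± 1.80) and NFE2 (49.9 ± 4.94), which did not differ beyond their spread on these lengths. LMO2 (27.5 ± 3.94) and GATA2 (20.8 ± 3.10) came next, then TAL1 (11.6 ± 1.67) and GFI1B (10.6 ± 1.77), again within their spread of each other, and RUNX1 was lowest of the 8 at 2.43 ± 0.192 RPKM. In resistant cells KLF1 (57.8 ± 11.6), GATA1 (56.0 ± 2.48) and NFE2 (52.8 ± 15.7) stood together at the top. Below them GATA2 (18.5 ± 3.27), TAL1 (17.0 ± 3.55) and LMO2 (14.4 ± 3.10 RPKM) overlapped. LMO2 thus moved from the fourth to the sixth place (to the fifth with the longest coding transcript as the length). The lengths are of all annotated exons joined, which are 15574 bases for RUNX1 and 6104 for GFI1B. With the longest coding transcript (7274 and 2449 bases) the mean in sensitive cells was 5.21 RPKM for RUNX1 and 26.4 RPKM for GFI1B, level with GATA2 (27.5). On that length NFE2 was above KLF1 in sensitive cells, at 67.3 ± 6.66 against 50.4 ± 1.80 RPKM, and had the highest mean of the 8 in resistant cells, at 71.1 ± 21.1 RPKM.

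Ratios of factors within a library do not depend on how libraries are scaled. Counts of GATA1 per count of GATA2 were 0.966, 1.14 and 1.67 in sensitive against 0.856, 0.950 and 1.33 in resistant libraries, which overlapped (exact permutation p = 0.5, two-sided). GATA1 per TAL1 was 1.34, 1.65 and 2.31 in sensitive against 0.958, 0.969 and 0.731 in resistant libraries. Every sensitive library had more GATA1 than TAL1 counts and every resistant one fewer. The difference of the log2 ratio was −0.97 (exact permutation p = 0.1, the smallest that 3 against 3 libraries allow; 0.167 adjusted over the 5 ratios tested). RUNX1 per GATA1 was 0.406, 0.344 and 0.269 in sensitive against 0.702, 0.565 and 0.471 in resistant libraries, without overlap (log2 difference 0.77, exact permutation p = 0.1). NFE2 per BACH1, a repressor that competes for the same small MAF partners, overlapped between groups (exact permutation p = 0.4). GFI1B per GFI1, its myeloid paralogue, was 9.97, 9.17 and 6.70 in sensitive against 17.6, 26.3 and 41.5 in resistant libraries (log2 difference 1.66, exact permutation p = 0.1). Because FLI1 was at 0 and BCL11A nearly so, no ratio was formed with them.

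Of these factors, GATA1 and GATA2 are known to bind the GATA motif, also at genes of other members. The promoter windows of the members were therefore read from RefSeq (GRCh38.p14, 250 bases before to 50 after each annotated start). Windows were found for 7 of the 10 genes, 14 in all. FLI1, LMO2 and NFE2 had none. The letters GATA, with A or T before them and A or G after them, were searched on both strands and were present in 4 of the 14 windows, of KLF1, TAL1 and GFI1B, and in 25.0% of all 35116 windows of that length. The KLF1 window holds matches 66 and 13 bases before the start, the TAL1 window 35 bases before and the GFI1B window shown 116 bases before. The other GFI1B window (chr9:132945281-132945580) holds a match 3 bases after its start and is not printed. The window of GATA1 is shown beside them as one without a match. Each is printed 5′ to 3′ on the strand of its gene, with matches in capitals.
KLF1 (chr19:12887152-12887451, minus strand): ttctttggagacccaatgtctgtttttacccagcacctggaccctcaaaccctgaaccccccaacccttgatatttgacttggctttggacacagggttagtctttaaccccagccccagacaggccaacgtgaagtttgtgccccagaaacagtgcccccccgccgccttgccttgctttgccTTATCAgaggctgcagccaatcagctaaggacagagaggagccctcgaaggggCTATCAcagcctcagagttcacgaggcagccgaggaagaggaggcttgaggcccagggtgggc
TAL1 (chr1:47232286-47232585, minus strand): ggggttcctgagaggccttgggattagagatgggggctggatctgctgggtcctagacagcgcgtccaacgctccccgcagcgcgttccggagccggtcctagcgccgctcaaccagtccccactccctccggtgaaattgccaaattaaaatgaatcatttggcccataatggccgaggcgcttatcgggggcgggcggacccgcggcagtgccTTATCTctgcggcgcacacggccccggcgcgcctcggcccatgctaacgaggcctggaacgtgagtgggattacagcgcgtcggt
GFI1B (chr9:132978444-132978743, plus strand): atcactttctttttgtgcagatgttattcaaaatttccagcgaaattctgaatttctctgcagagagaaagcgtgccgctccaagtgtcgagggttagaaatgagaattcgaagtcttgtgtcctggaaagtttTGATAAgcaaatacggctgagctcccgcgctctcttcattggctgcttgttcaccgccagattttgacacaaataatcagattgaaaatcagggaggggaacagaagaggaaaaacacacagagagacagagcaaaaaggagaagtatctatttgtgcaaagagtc
GATA1 (chrX:48786340-48786639, plus strand): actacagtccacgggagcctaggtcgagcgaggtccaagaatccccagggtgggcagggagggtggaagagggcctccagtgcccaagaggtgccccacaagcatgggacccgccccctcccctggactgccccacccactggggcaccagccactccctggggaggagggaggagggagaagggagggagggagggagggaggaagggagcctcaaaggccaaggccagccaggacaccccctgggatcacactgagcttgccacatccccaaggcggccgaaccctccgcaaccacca
The 3 genes with a match did not share a direction, with log2 fold changes of 0.20 (KLF1), 0.55 (TAL1) and −0.45 (GFI1B), and none passed the test. A match in these letters is a description and not a binding site. Of other motifs, CCNCNCCC, the kind bound by KLF proteins, was in 10 of the 14 windows (56.2% of all windows), CAGNTG, an E-box, in 5 (49.9%), TGTGGT or TGCGGT, bound by RUNX proteins, in 2 (19.6%), GGAAGT, bound by ETS factors, in 2 (22.8%) and TGACTCA, the core bound by NFE2, in 0 (4.95%), each searched on both strands, with GATA and other matches allowed to overlap.

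Genes for proteins that work with these factors were called in both directions. Of 42 listed partners 41 were tested, 8 rose and 3 fell, with a median log2 fold change of 0.20 beside 0.03 for all tested genes. Over all tested genes 9.83% were called higher and 13.1% lower, the shares to set beside this list and each list below. SSBP2, which holds LDB1 in the LMO2 complex, fell from 27.4 ± 8.26 to 9.40 ± 0.996 CPM (edgeR adjusted p = 0.00107), while its relative SSBP3 rose from 22.9 ± 2.49 to 39.0 ± 9.24 CPM (0.0184). MAFF, a small MAF partner of NFE2, fell from 7.68 ± 1.30 to 2.54 ± 0.408 CPM. The small MAF genes MAFG (mean 50.4 to 62.2 CPM, log2 fold change 0.30) and MAFK (7.48 to 10.0 CPM, 0.42) were not called (edgeR adjusted p = 0.304 and 0.169). HMG20B, a subunit of the KDM1A complex that GFI1B recruits, fell from 57.3 ± 6.40 to 34.4 ± 1.67 CPM. The acetyltransferase gene EP300 rose from 42.4 ± 4.38 to 88.2 ± 36.2 CPM, with 122, 92.4 and 50.1 CPM in the resistant libraries, so that replicate 3 was close to the sensitive level. The number of calls varied: between 0 and 10 partners were called higher when 1 library was left out and 15 without both libraries numbered 3, against 3 lower in every case with 1 left out and 7 without both. SSBP3 was not called without sensitive replicate 2 (log2 fold change 0.67, adjusted p = 0.0887), resistant replicate 1 (0.57, 0.0583) or resistant replicate 2 (0.82, 0.0519), against 0.77 with all 6 libraries. EP300 lost its call without each library but resistant replicate 3 (adjusted p from 0.0629 to 0.0716), with log2 fold changes of 0.96 to 1.09 in 4 of these fits and 0.75 without resistant replicate 1, against 1.06 with all 6. LDB1 itself, at 108 to 145 CPM in sensitive and 104 to 125 CPM in resistant libraries, was not called (adjusted p = 0.429), nor were the E protein genes TCF3 (log2 fold change 0.42, edgeR adjusted p = 0.0758) and TCF12 (−0.44, 0.0757).

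Relatives of the 10 factors more often fell than rose. Of 34 listed paralogues 26 were tested, 2 rose and 10 fell, with a median log2 fold change of −0.67. Of all tested genes 9.83% rose and 13.1% fell. Among the paralogues that fell, LMO3 (mean 0.646 to 0 CPM) and KLF7 (0.746 to 0.0435 CPM) passed the count filter only through the sensitive libraries. BACH2, a repressor related to NFE2, fell from 14.5 ± 1.97 to 3.53 ± 0.957 CPM, RUNX2 from 13.6 ± 1.47 to 3.24 ± 1.35 CPM, GFI1 from 7.58 ± 1.01 to 1.76 ± 0.416 CPM and KLF8 from 7.45 ± 1.17 to 0.623 ± 0.359 CPM (edgeR adjusted p between 3.28e-04 and 0.00110). LMO3, a relative of LMO2, went from 72 counts over the sensitive libraries to 0 in the resistant ones. With 3 counts taken for the resistant group it was 21.8-fold lower, without allowance for the counting error of the sensitive counts. Between 8 and 11 paralogues were called lower when 1 library was left out, and between 0 and 3 higher. ERG, the closest relative of FLI1, was filtered out as too low but had 0 counts in sensitive cells and 0.608, 0.452 and 0.183 CPM in the resistant libraries. With 3 counts taken for the sensitive group ERG was 17.2-fold higher, without allowance for the counting error of the resistant counts. It was named after its values were seen.

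Other regulators of the same lineages moved both ways, 6 up and 4 down of 32 tested, with a median log2 fold change of 0.22. MEIS1, a homeodomain factor of progenitors and megakaryocytes, fell from 20.9 ± 2.72 to 7.91 ± 0.627 CPM (edgeR adjusted p = 4.33e-04). ETS1, an ETS factor encoded beside FLI1 on chromosome 11 (128458761 to 128587558), fell from 13.1 ± 1.39 to 1.98 ± 0.988 CPM (3.38e-04). NR2F2, a nuclear receptor linked to the embryonic globin programme, rose from 19.2 ± 1.19 to 41.6 ± 10.3 CPM, and MLLT3 from 0.606 ± 0.171 to 3.58 ± 1.96 CPM. Leaving out 1 library gave between 3 and 11 higher and between 2 and 5 lower, and leaving out both numbered 3 gave 14 and 6.

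Genes listed as targets of the factors were described by lineage, and whether the factors bind each of them was not tested. Among erythroid targets, 6 rose and 7 fell of 44 tested (2 of these 44, GATA1 and TAL1, are members), with a median log2 fold change of 0.02. Of those that rose, HBB (mean 0.0857 to 0.658 CPM) passed the count filter only through the resistant libraries. The ankyrin gene ANK1 of red cells rose from 138 ± 18.1 to 385 ± 50.7 CPM and ERMAP from 17.7 ± 3.20 to 34.3 ± 8.34 CPM, although ERMAP missed the threshold without sensitive replicate 1 (edgeR adjusted p = 0.0543) or 2 (0.0604). XK fell from 108 ± 8.06 to 35.4 ± 8.61 CPM and the actin-bundling protein gene DMTN from 8.95 ± 2.38 to 3.66 ± 0.525 CPM. HBA2, whose alpha globin sequence is almost the same as that of HBA1 so that its counts are uncertain, measured 3.91, 1.92 and 1.39 CPM in sensitive against 9.67, 10.3 and 23.0 CPM in resistant libraries. Between 2 and 6 targets were called higher and between 3 and 14 lower when 1 library was left out, and 10 and 21 without both libraries numbered 3. HBG1 and HBG2, the fetal globin genes that BCL11A represses, were not called (log2 fold changes of −0.35 and −0.52, adjusted p = 0.620 and 0.539), and in resistant cells replicate 3 had 123 CPM of HBG1 against 35.2 and 35.0 in the other 2.

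Of 35 listed megakaryocyte targets 24 were tested, of which 1 rose, 11 fell and 12 were not called, with a median log2 fold change of −0.83. Of all tested genes 9.83% rose and 13.1% fell. Among the targets that fell, SERPINE2 (mean 6.13 to 0.191 CPM) had few counts in the resistant libraries. F2RL3, a thrombin receptor gene of platelets, fell from 41.5 ± 3.52 to 5.64 ± 0.499 CPM (edgeR adjusted p = 3.48e-06), PTGS1, the platelet cyclooxygenase, from 18.4 ± 7.13 to 1.93 ± 0.260 CPM and FERMT3, an integrin activator, from 135 ± 2.31 to 57.1 ± 2.37 CPM. ITGA2B, the platelet integrin αIIb gene and a known GATA1, FLI1 and RUNX1 target, measured 93.9, 88.8 and 29.4 CPM in sensitive against 12.7, 11.8 and 17.8 CPM in resistant libraries, so that sensitive replicate 3 lay between the groups. F2R, another thrombin receptor gene, fell from 48.8 ± 19.6 to 14.9 ± 1.91 CPM. The count of lower targets was 7 without sensitive replicate 1, between 8 and 10 without each other library and 14 without both numbered 3. Another 11 were too low to test, among them PF4, PPBP and GP9.

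Of 20 listed progenitor and mast cell targets 13 were tested, 1 rose and 4 fell, with a median log2 fold change of −0.52. KIT, the stem cell factor receptor and a known target of GATA2, TAL1 and LMO2, measured 113, 114 and 136 CPM in sensitive against 4.34, 4.57 and 1.41 CPM in resistant libraries. This is a 35.1-fold fall (log2 fold change −5.13 ± 0.39 SE, edgeR adjusted p = 1.53e-05). FCER1A, the alpha chain of the high-affinity IgE receptor on mast cells, rose from 0.0379 ± 0.0329 to 4.12 ± 0.826 CPM (4.39e-05). It passed the count filter only through the resistant libraries, with 0, 2 and 2 counts in the sensitive ones. MS4A2, the beta chain of the same receptor, fell from 1.61 ± 0.870 to 0.479 ± 0.207 CPM. That call was lost when sensitive replicate 1 or 2, or resistant replicate 2 or 3, was left out (edgeR adjusted p from 0.0567 to 0.181). SMYD3 fell from 296 ± 94.2 to 104 ± 13.2 CPM and DPYSL2 from 23.0 ± 8.26 to 7.88 ± 0.586 CPM. These 2 are named as members of the list, and their place as targets of the factors was not checked here.

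Of 22 listed factors of other blood lineages 13 were tested, and 0 were called higher and 3 lower by edgeR. The number higher was 2 at an unadjusted p below 0.05, 1 by DESeq2, 0 by limma-voom, 2 with no filter and 1 without resistant replicate 3. The number lower was 5 at an unadjusted p below 0.05, by DESeq2, by limma-voom and with no filter, 6 without resistant replicate 3 and 7 without both libraries numbered 3. IKZF3, a lymphoid factor, fell from 15.3 ± 2.74 to 4.11 ± 0.0422 CPM, LEF1 from 23.9 ± 3.39 to 10.9 ± 0.512 CPM and CEBPD, a myeloid factor, from 6.75 ± 0.292 to 3.86 ± 0.747 CPM, the last not called without sensitive replicate 1 or 2 or resistant replicate 1 or 2 (edgeR adjusted p from 0.0552 to 0.109). SPI1, the myeloid factor PU.1 that opposes GATA1, measured 19.7, 19.9 and 19.8 CPM in sensitive against 15.3, 12.5 and 7.18 CPM in resistant libraries (log2 fold change −0.77, edgeR adjusted p = 0.0535). GATA3, the T cell relative of GATA1, was below 1 CPM in every library, beside the CD3 genes given above.

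**Figure D3:**
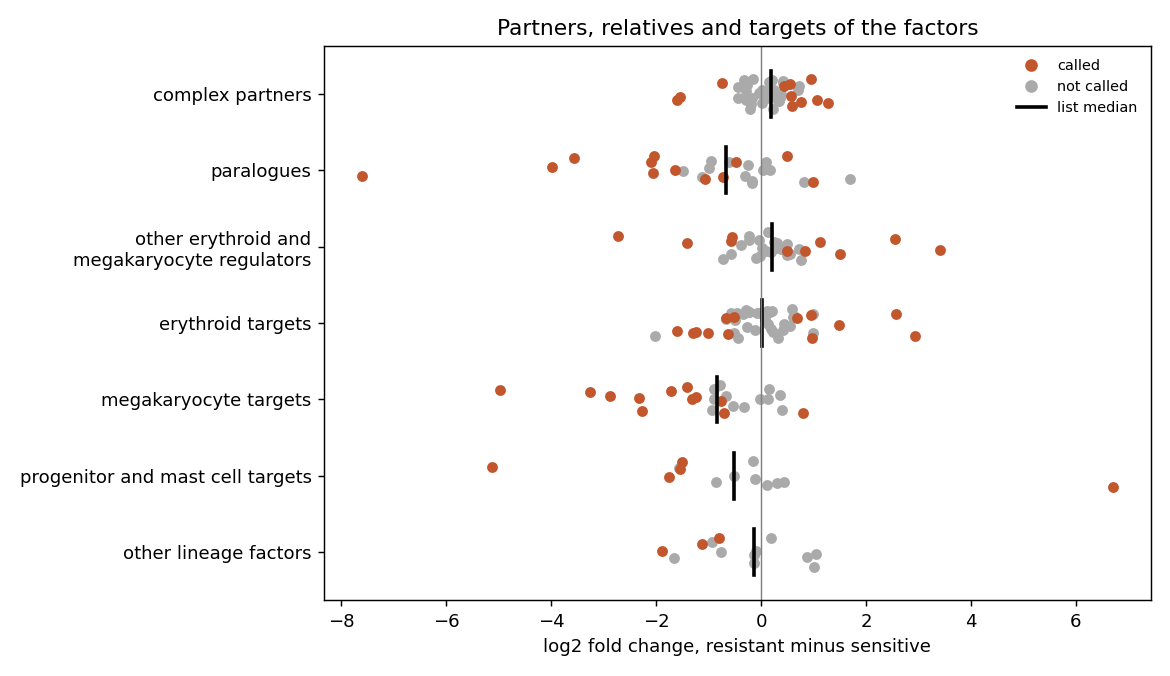
Log2 fold change, resistant minus sensitive (horizontal axis), of each tested gene in 7 lists of partners, relatives and targets of the factors; orange points are called, grey points are not and black bars are list medians. The medians of megakaryocyte targets (−0.83) and paralogues (−0.67) are left of 0, that of erythroid targets is at 0.02, and KIT (−5.13) and FCER1A (6.71) are far out in opposite directions. The paralogue at the far left is LMO3, whose fitted value of −7.61 depends on the prior count because its resistant libraries are at 0. FCER1A had only 4 counts over the sensitive libraries, so the size of its value is also uncertain.

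Each factor was also set beside its neighbours on the chromosome, up to 10 tested protein-coding genes on each side with a mean log2 CPM above 3. Their median log2 fold change was between −0.31 (GATA1 and NFE2) and 0.25 (GFI1B), beside 0.03 for all tested genes. Of all tested genes 9.83% were called higher and 13.1% lower. The shares among protein-coding genes above that level alone are not given here. Around GATA1, 15 of 20 neighbours had a negative log2 fold change (0 higher and 3 lower by the test; between 1 and 7 lower with 1 library left out), and GATA1 itself had −0.43. Around GFI1B 15 of 20 were positive (3 higher, 0 lower; between 2 and 5 higher with 1 library left out), where GFI1B had −0.45. Around LMO2 0 were higher and 4 lower (between 2 and 6 lower with 1 library left out), and the genes on either side, FBXO3 (−0.22) and CAPRIN1 (0.12), were not called. The adhesion receptor gene CD44, the sixth neighbour of LMO2 and named after its values were seen, fell from 85.3 to 2.50 CPM. Around FLI1, which had no counts itself, 4 of 20 neighbours were higher and 0 lower (between 0 and 4 higher with 1 library left out). ETS1, which fell as given above, lies next to FLI1 but is not among these 20, because its mean over all libraries is under the minimum level for a neighbour.

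The nearest neighbours of NFE2 mostly fell. Of its 5 nearest neighbours on each side, 8 were lower and 0 higher, with a median log2 fold change of −0.78, while NFE2 had 0.08. Of all tested genes 13.1% were lower. HNRNPA1 on one side fell from 1384 ± 320 to 809 ± 112 CPM, and COPZ1 and ITGA5, an integrin gene, on the other from 215 ± 7.81 to 139 ± 13.2 and from 153 ± 17.5 to 67.4 ± 16.7 CPM. NCKAP1L and TESPA1, both named after their values were seen, fell further, from 203 ± 50.3 to 62.5 ± 5.14 and from 22.9 ± 3.48 to 2.69 ± 0.524 CPM. CBX5 (0.24) and SMUG1 (−0.01) were the 2 not called. The number lower was between 4 (without resistant replicate 2) and 8 when 1 library was left out (5 without sensitive replicate 2 or resistant replicate 1), and 8 without both libraries numbered 3. HNRNPA1 lost its call without each library but resistant replicate 3 (adjusted p between 0.0517 and 0.175), and COPZ1 without sensitive replicate 1 or 2 or resistant replicate 1 or 2 (0.0561 to 0.0814). With 10 neighbours on each side, the same 8 were lower, 2 were higher and the median was −0.31. The difference between NFE2 and its neighbours was not tested.

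**Figure D4:**
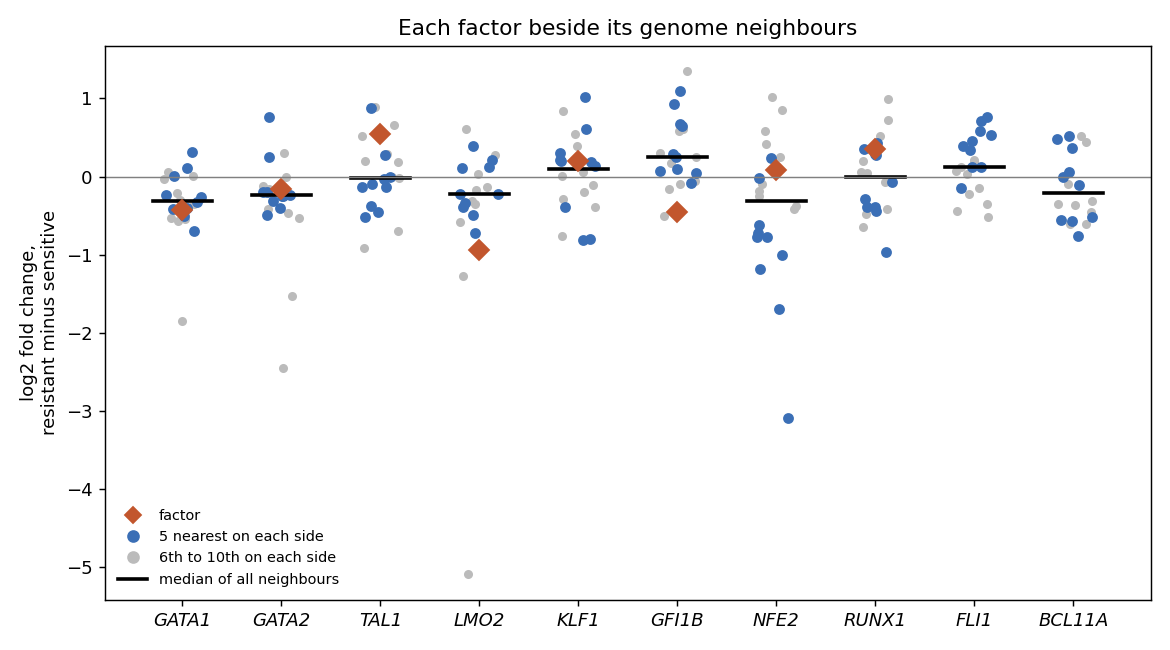
Log2 fold change, resistant minus sensitive (vertical axis), of each factor (diamond; none for FLI1 and BCL11A, which were not tested) and of up to 10 tested protein-coding neighbours on each side, the 5 nearest in blue; black bars are the medians of all neighbours. NFE2 (0.08) lies above most of its nearest neighbours and GFI1B (−0.45) below most of its own (median 0.25).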

How the data were processed

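RNA was measured in 6 K562 libraries, 3 per group, grouped by their labels. Per the labels' protocols, DNase-treated total RNA was sequenced in pairs after ribosomal RNA removal with a stranded kit. The authors deposited whole-number counts, unnormalized, for each Ensembl ID. Trimmomatic 0.39, HISAT2 2.2.1, Subread 2.0.3 with featureCounts, and GRCh38 are named in the submitters' processing notes. Neither the annotation release nor whether counting used strand is stated there, so overlapping genes and near-identical copies are uncertain.

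Symbols were found for 61369 of 61487 IDs, and positions and lengths for 58312 in GENCODE 29 (GRCh38). Counts were filtered with filterByExpr, scaled with TMM, and fitted in edgeR 4.0.16 (R 4.3.3) by robust quasi-likelihood with a two-sided test. The SE is the log2 fold change over the square root of F, and 95% intervals use its degrees of freedom. CPM and RPKM use TMM-scaled totals. A count of 0 allows 0.0698 to 0.0909 CPM in 1 library. Limits from counts cover only the counting error of the libraries at 0. Ratios had 0.5 added to each count. Promoters were RefSeq windows. The fit was tested on simulated counts with known changes.

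Alternatives were DESeq2 1.42.0 (size factors, and its own test), limma-voom (limma 3.58.1), upper quartile factors, library totals alone, no filter, a minimum of 50 counts in 3 libraries, a replicate block, libraries left out, and a table without mitochondrial genes, ribosomal RNA genes and the top 10 features by abundance. Named were all members and ratio genes, up to 5 called genes per list with the smallest adjusted p, overlapping genes and up to 2 neighbours a side; other names (TCF3, TCF12, LDB1, SMUG1, GATA3, SPI1, HBG1, HBG2, PF4, PPBP and GP9 among them) were added after values were seen. Some genes that the rule names are not reported here. The members and lists were chosen with earlier results of these data known.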

Additional observations from a re-analysis of the deposited data

How the results depend on the processing

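LMO2 was lower under each of 16 alternatives and called in 15 of them, with log2 fold changes from −1.15 to −0.76. The number of tested factors called higher, 0 in the main fit, was 1 with upper quartile factors, library totals alone, no filter, at least 50 counts, the replicate block and DESeq2 (TAL1 each time), and 1 without both libraries numbered 3 (RUNX1). The number called lower, 1 in the main fit, was 2 with the replicate block, 3 without both libraries numbered 3, and between 0 and 3 when 1 library was left out. The sign of NFE2 turned without sensitive replicate 2 (−0.01), resistant replicate 3 (−0.20) and both libraries numbered 3 (−0.12), where it was not called; with 1 library left out it ranged from −0.20 to 0.26. Over all genes, leaving out 1 library gave between 1051 and 3327 higher and between 1677 and 3718 lower, and leaving out both numbered 3 gave 4645 and 5021. With library totals alone the median of all tested genes was 0.20 on the log2 scale, and with TMM 0.03. Of 224 list counts under alternatives, 61 moved by over 1.5 times. The cause of these moves was not tested. The ratio of GATA1 to GATA2 had a log2 difference of −0.04 without sensitive replicate 3, against −0.26 with all 6 libraries. Replicate numbers are shared between the groups, and deviations of same-numbered libraries correlated at 0.202, 0.085 and 0.299 for numbers 1, 2 and 3. Sensitive replicates 1 and 3 each correlated best with the resistant library of the same number. Sensitive replicate 2 correlated best with resistant replicate 1 (0.230). The labels do not say whether the numbers mark pairs, and these values do not settle it. The main fit did not take them as pairs, and the replicate block is the alternative that does. With the replicate block, 2859 genes were higher and 3582 lower, TAL1 was higher (0.54, edgeR adjusted p = 0.0445) and GATA1 lower (−0.43, 0.0238). With 3 libraries a group, a log2 interval of about the size shown for each factor is the limit of precision, and FLI1 and BCL11A are below the depth needed for a test.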
